A study of Homo sapiens with 8 samples.

Results

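Aminoacyl-tRNA synthetases are the enzymes that load each transfer RNA with its amino acid. A set of 38 genes was taken by name from the 58302 genes of the expression tables: 19 cytosolic synthetases, 16 mitochondrial synthetases and 3 scaffold proteins, AIMP1, AIMP2 and EEF1E1, of the cytosolic multisynthetase complex. Older annotations write the cytosolic enzymes without the final 1, such as AARS for AARS1. The rule that chose them used no expression value, though the genes were chosen with earlier results of these data known. All 38 reached the minimum mean of 1 FPKM, that is fragments per kilobase of gene model and per library size, over the 8 libraries.

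The libraries came from SK-Hep1, an established human line from a liver tumour with endothelial-like features. Mock cells and cells made to express SLC29A2, an equilibrative nucleoside transporter, received the treatment labelled control, sorafenib alone, dipyridamole alone, or the drugs together. Sorafenib inhibits several protein kinases, and dipyridamole blocks equilibrative nucleoside transport and phosphodiesterases. There was 1 library for each of the 8 conditions, all on the same culture medium, and the sources used here give no doses, treatment times or vector and do not say whether the lines were clones.

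A charged transfer RNA is the substrate of every codon read by a ribosome. Human cells keep separate nuclear genes for most cytosolic and mitochondrial synthetases, while GARS1 and KARS1 each supply both compartments and are counted here as cytosolic. Genes of several cytosolic enzymes are known targets of ATF4, a transcription factor whose translation increases when amino acids run short or the endoplasmic reticulum is stressed, whereas the mitochondrial enzymes serve only the few proteins encoded by mitochondrial DNA.

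Library depth, inferred from the steps of the deposited values, was 14.07 to 16.69 M reads. SLC29A2 averaged 7.56 ± 0.317 FPKM (SD, n = 4) in mock libraries and 2149 ± 651 in SLC29A2 libraries, which matched the labels. Hepatocyte markers were near 0, with 6 of 7 below a mean of 1 FPKM and 3 listed at 0 in every library. Of 7 endothelial markers 5 were below 1 FPKM, whereas ENG averaged 64.4. Keratin KRT8 and vimentin, the highest of 5 epithelial and 5 mesenchymal markers, averaged 1167 and 651. Below 1 FPKM were 2 of the 5 epithelial and 1 of the 5 mesenchymal markers. The pair of mock libraries given dipyridamole stood apart in their share of reads on noncoding genes, 2.48% and 2.68% against 1.60% to 1.93% elsewhere.

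The cytosolic enzymes were the more abundant class. Their median over genes of the mean FPKM was 144, against 23.2 for the mitochondrial enzymes and 14.9 for the scaffold proteins. Valyl-tRNA synthetase VARS1 had the highest mean FPKM, 516, followed by alanyl-tRNA synthetase AARS1 at 482 and methionyl-tRNA synthetase MARS1 at 434. VARS1 ranged over the libraries from 409.6 to 588 FPKM and AARS1 from 199 to 961, so these neighbours in the order did not separate beyond their spread. Among cytosolic enzymes FARSB, the beta chain of phenylalanyl-tRNA synthetase, was lowest at 20.6, well under its partner chain FARSA at 139 on the same per-length scale. The cysteinyl enzyme CARS2, at a mean FPKM of 136, and the isoleucyl enzyme IARS2, at 120.3, were the most abundant mitochondrial enzymes. At the low end SARS2, the mitochondrial seryl enzyme, had a mean of 1.22 FPKM and rested on 11 to 26 recovered reads per library. Of its 3231 exonic bases, 1492 overlap another gene on the same strand and 349 overlap MRPS12 on the opposite strand. Whether this overlap lowers its count was not tested. FPKM here divides by the mean length of a gene's transcripts. Dividing by the longest transcript instead, a choice made after seeing the data, gave class medians of 60.8, 11.4 and 10.3 reads per kb of longest transcript, scaled to library size, and changed the order: AARS1 moved from rank 2 to rank 1 and SARS1 from rank 7 to rank 2, while WARS1, at 19.3, replaced FARSB, at 20.3, as the lowest cytosolic gene. On that scale IARS2, at 43.7, was above CARS2, at 40.2, and FARSA was at 86.8.

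**Figure D1:**
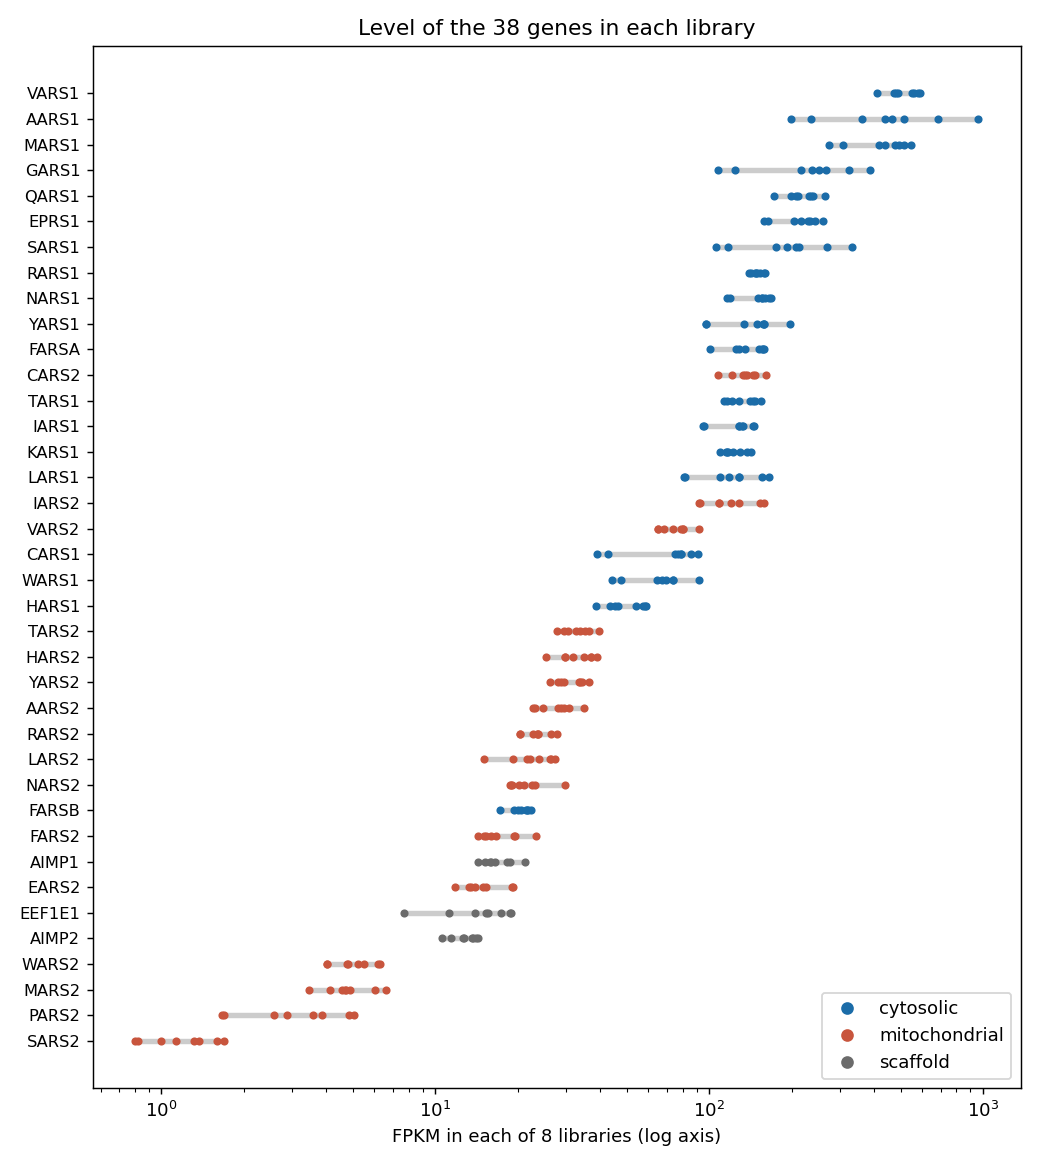
FPKM (log axis) of each of the 38 genes in the 8 libraries, 1 point per library, with a grey bar over the range, ordered by mean and coloured by class. Cytosolic enzymes fill most of the upper rows, up to 961 FPKM for AARS1, and SARS2 lies lowest.

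Promoter sequence was examined because several of these genes moved together. The letters TGATGNAA, the core of the element bound by ATF4 with C/EBP partners, were searched on both strands of RefSeq promoter windows (GRCh38.p14, 250 bases before to 50 after each start). They occurred in 3.62% of 35116 windows, and in 4.46% of 27305 genes with a window. Windows were found for 33 of the 38 genes, not for LARS1, VARS1, YARS1, AARS2 and VARS2. A match was present in 7 of 16 cytosolic genes, 1 of 14 mitochondrial genes and 0 of 3 scaffold genes. The stretches of 30 bases are given on the strand of the gene, 5′ to 3′, with the 8 matching letters in capitals, and ASNS, the asparagine synthetase gene, is added for comparison.
AARS1, chr16:70289675-70289704, minus strand: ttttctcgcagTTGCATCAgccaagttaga
CARS1, chr11:3057407-3057436, minus strand: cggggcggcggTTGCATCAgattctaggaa
GARS1, chr7:30594834-30594863, plus strand: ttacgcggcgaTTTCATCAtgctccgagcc
IARS1, chr9:92293692-92293721, minus strand: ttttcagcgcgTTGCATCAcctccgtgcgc
MARS1, chr12:57488053-57488082, plus strand: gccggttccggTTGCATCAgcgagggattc
NARS1, chr18:57621804-57621833, minus strand: tctacgctctcTGATGCAAcgccggaatcg
TARS1, chr5:33440956-33440985, plus strand: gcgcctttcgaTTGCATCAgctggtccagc
YARS2, chr12:32756076-32756105, minus strand: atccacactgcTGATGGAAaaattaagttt
ASNS, chr7:97872458-97872487, minus strand: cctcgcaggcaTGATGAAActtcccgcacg
In 6 of these 9 stretches the capitals read TTGCATCA or its reverse complement TGATGCAA, the exceptions being GARS1, YARS2 and ASNS. The first matching base lay at -2 in CARS1, -4 in MARS1, -13 in IARS1, -33 in GARS1, -68 in ASNS, -187 in AARS1 and -197 in YARS2, relative to the start, and just inside the transcript in NARS1 and TARS1. For AARS1, the gene with the widest range, the 250 bases before the start are shown with the same letters in capitals.
AARS1, chr16:70289507-70289756, minus strand: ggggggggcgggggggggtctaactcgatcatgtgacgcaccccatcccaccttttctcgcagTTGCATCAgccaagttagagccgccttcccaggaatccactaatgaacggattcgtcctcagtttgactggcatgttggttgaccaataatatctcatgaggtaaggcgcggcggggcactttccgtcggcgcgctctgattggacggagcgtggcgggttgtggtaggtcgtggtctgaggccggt
A match describes letters and was not tested for binding, and a window without one says only that these letters are not in it.

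Sorafenib was associated with higher RNA of 4 of 19 cytosolic enzymes, those for alanine, serine, glycine and leucine, and with no call among 16 mitochondrial enzymes or 3 scaffold proteins. In all tested genes 5.94% were called higher and 2.17% lower. The 4 calls make 21.1% of the cytosolic enzymes. In bulk RNA fewer cells of a type and less RNA per cell cannot be told apart. Effects are differences of log2(FPKM + 1) between the 4 libraries with and the 4 without sorafenib. Standard errors came from limma, with Benjamini-Hochberg adjustment over 13899 genes. In a limma model of 4 treatments and cell type, sorafenib alone raised 1 of 19 cytosolic enzymes, CARS1 (5.26%), against 0.432% of all genes. The 4 enzymes above had limma adjusted p of 0.0582 (GARS1) to 0.0853 (AARS1) there. Sorafenib added to dipyridamole raised 3 of 19, AARS1, SARS1 and LARS1 (15.8%), against 8.22%.

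AARS1 (ENSG00000090861, chr16:70252295-70289543 on GRCh38), which charges transfer RNA with alanine, stood at 236 in mock control cells, 513 with sorafenib, 360.2 with dipyridamole and 687 with both, and 199, 440.3, 464 and 961 in the same order in SLC29A2 cells, in FPKM. Within each cell type the control library was lowest and the library with both drugs highest. Its sorafenib effect was 1.06 ± 0.15 (limma, adjusted p = 0.00678), between 0.93 and 1.14 in the 4 pairs of libraries. Seryl-tRNA synthetase SARS1 (ENSG00000031698, chr1:109213918-109238169), which also charges the transfer RNA for selenocysteine, measured 117 in mock control cells, 212 with sorafenib, 175 with dipyridamole and 269.9 with both, and 106, 192, 207 and 333 in the same order in SLC29A2 cells, in FPKM. Here too the control libraries were lowest and the both-drug libraries highest in each cell type, and the effect of sorafenib was 0.76 ± 0.12 (limma, adjusted p = 0.01). For AARS1 and SARS1 the libraries with and without sorafenib overlapped, since dipyridamole alone gave values above some sorafenib values.

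Glycyl-tRNA synthetase GARS1 (ENSG00000106105, chr7:30594681-30634033), whose mutations cause an inherited neuropathy, had FPKM of 124 in mock control cells, 253 with sorafenib, 238 with dipyridamole and 325 with both, and 108, 216, 266 and 386 in the same order in SLC29A2 cells. The pattern across libraries was that of AARS1, with a sorafenib effect of 0.75 ± 0.14 (limma, adjusted p = 0.0209). GARS1 missed the threshold for sorafenib without the mock sorafenib, mock dipyridamole or SLC29A2 control library, at limma adjusted p of 0.0601, 0.0655 and 0.0575. Leucyl-tRNA synthetase LARS1 (ENSG00000133706, chr5:146113038-146182660), a leucine sensor of the mTORC1 pathway, read 80.9 in mock control cells, 128 with sorafenib, 118 with dipyridamole and 156 with both, and 81.9, 129, 109 and 165 in the same order in SLC29A2 cells, in FPKM. All 4 sorafenib libraries were above all 4 others, and the effect was 0.57 ± 0.10 (limma, adjusted p = 0.0129, and 0.0511 without the mock sorafenib library).

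Only 3 genes of the set, LARS1, the glutamyl-prolyl enzyme EPRS1 and the threonyl enzyme TARS1, had no overlap between sorafenib and other libraries, all 3 higher and all cytosolic, against 5.83% of all genes. None was lower in all 4 sorafenib libraries, against 2.14%. EPRS1 and TARS1 did not pass the test, with effects of 0.39 ± 0.11 and 0.29 ± 0.09 (limma, adjusted p = 0.0646 and 0.083). Just outside the threshold lay YARS1 (tyrosine) at 0.47, CARS1 (cysteine) at 0.55 and WARS1 (tryptophan, an interferon-inducible gene) at 0.41, with limma adjusted p of 0.0503, 0.0539 and 0.0613. The same 3 passed, for a count of 7, when voom was run on recovered reads, where 8.87% of all genes were called higher. The other cytosolic enzymes had effects from -0.20 for VARS1 to 0.46 for MARS1, none called.

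Mitochondrial enzymes had sorafenib effects from -0.32 for MARS2, which charges methionine, to 0.57 for PARS2, which charges proline. By limma 0 of 16 passed, 2 were higher and 1 lower at an unadjusted p under 0.05, or 18.8% against 26.6% of all genes, and voom called 0. The median effect was 0.12 for mitochondrial, 0.30 for cytosolic and 0.09 for all tested genes, while for the scaffold proteins it was -0.06. Scaling by median-of-ratios size factors shifted the median of all genes to -0.02, left AARS1 and SARS1 called where 3.18% of all genes were higher, and lowered the share of higher among all called genes from 73.2% to 47.6%. Without the filter on low values, with 31551 genes tested, LARS1 alone was called, where 0.311% of all genes were called higher. With size factors the class medians were 0.18 for cytosolic and 0.01 for mitochondrial enzymes.

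The 3 mitochondrial genes with the largest sorafenib effects, none called, were PARS2, MARS2 and FARS2. PARS2 had FPKM of 2.88 in mock control cells, 3.85 with sorafenib, 1.70 with dipyridamole and 4.84 with both, and 1.66, 2.59, 3.58 and 5.04 in the same order in SLC29A2 cells. Its values were low and sorafenib libraries overlapped the others, with an effect of 0.57 ± 0.23 (limma, adjusted p = 0.15). MARS2 had FPKM of 6.61 in mock control cells, 4.58 with sorafenib, 4.90 with dipyridamole and 4.12 with both, and 6.01, 4.71, 4.66 and 3.47 in the same order in SLC29A2 cells, with the control libraries highest in both cell types and the libraries with both drugs lowest, and an effect of -0.32 ± 0.13 (limma, adjusted p = 0.148). FARS2, the phenylalanyl enzyme, had FPKM of 15.0 in mock control cells, 19.4 with sorafenib, 14.3 with dipyridamole and 19.6 with both, and 16.01, 15.3, 16.6 and 23.3 in the same order in SLC29A2 cells and an effect of 0.30 ± 0.13 (limma, adjusted p = 0.196).

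The mitochondrial counterparts of AARS1 and SARS1 did not pass. AARS2 had FPKM of 29.5 in mock control cells, 22.7 with sorafenib, 28.9 with dipyridamole and 23.1 with both, and 35.0, 24.8, 28.0 and 30.8 in the same order in SLC29A2 cells, lower with sorafenib than in the control library of both cell types, and its sorafenib effect was -0.25 ± 0.12 (limma, adjusted p = 0.216). SARS2 had FPKM of 1.60 in mock control cells, 1.31 with sorafenib, 0.802 with dipyridamole and 1.37 with both, and 1.13, 1.70, 0.824 and 0.995 in the same order in SLC29A2 cells, too few reads to order the libraries.

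**Figure D2:**
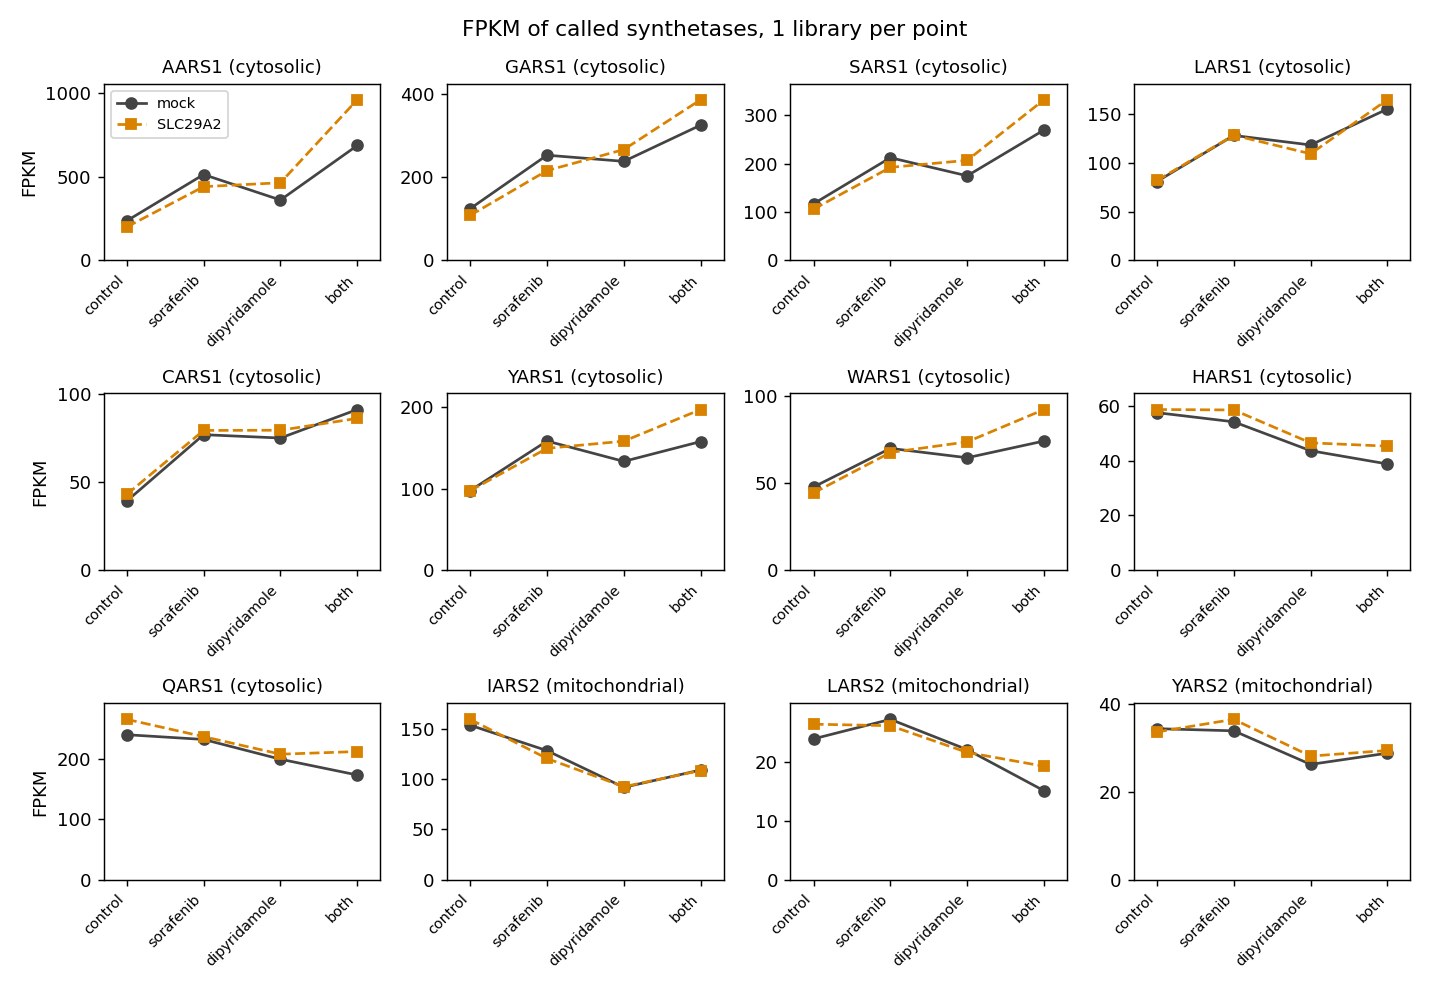
FPKM of the 12 synthetases called for sorafenib or dipyridamole, by treatment, in mock cells (circles) and SLC29A2 cells (squares), 1 library per point, joined only to guide the eye. AARS1, GARS1 and SARS1 are lowest in the control and highest in the both-drug library of each cell type, whereas HARS1, QARS1, IARS2, LARS2 and YARS2 are lower in all dipyridamole libraries.

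With dipyridamole 7 of 19 cytosolic enzymes rose and 2 fell, while 0 of 16 mitochondrial enzymes rose and 3 fell. Across all tested genes 17.5% were called higher and 12.6% lower. The 36.8% of cytosolic enzymes higher exceeded the background share, and 18.8% of mitochondrial enzymes lower and 10.5% of cytosolic ones lower were near it. In a limma model of 4 treatments and cell type, dipyridamole alone raised 9 of 19 cytosolic enzymes, or 47.4%, against 7.43% of all genes. Dipyridamole added to sorafenib raised 3 of 19, or 15.8%, near the 14.0% of all genes. The difference between these counts was not tested. The sorafenib and dipyridamole effects share their libraries, and their values are given side by side without a comparison between them.

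GARS1, AARS1 and SARS1 rose by 0.86, 0.84 and 0.67 (limma, adjusted p = 0.00281, 0.00383 and 0.00384), against sorafenib effects of 0.75, 1.06 and 0.76. These 3 calls held in all 15 alternatives. CARS1 had FPKM of 39.1 in mock control cells, 76.7 with sorafenib, 74.8 with dipyridamole and 91.0 with both, and 42.9, 79.1, 79.3 and 86.0 in the same order in SLC29A2 cells. The control libraries alone were low, and either drug brought CARS1 close to the level with both. Its dipyridamole effect was 0.54 ± 0.15 (limma, adjusted p = 0.0253), lost without either control library or either dipyridamole-only library (adjusted p of 0.0699 and 0.0818, and 0.0778 and 0.0871).

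LARS1 rose by 0.40 (limma, adjusted p = 0.0141, and 0.0567 without the SLC29A2 control library). WARS1 measured 47.7 in mock control cells, 69.9 with sorafenib, 64.5 with dipyridamole and 74.1 with both, and 44.3, 67.5, 73.6 and 92.2 in the same order in SLC29A2 cells, in FPKM, with an effect of 0.42 ± 0.12 (limma, adjusted p = 0.0252). YARS1 measured 97.6 in mock control cells, 159 with sorafenib, 134 with dipyridamole and 158 with both, and 97.4, 149.6, 158 and 197 in the same order in SLC29A2 cells, in FPKM, with an effect of 0.38 ± 0.12 (limma, adjusted p = 0.0422), positive in 3 of 4 pairs. For both, the control libraries were lowest, the SLC29A2 both-drug library was highest, and dipyridamole and other libraries overlapped. Both calls were lost in 6 of 8 omissions of 1 library, holding only without the mock sorafenib or the mock both-drug library. Their limma adjusted p reached 0.0957 for WARS1 and 0.149 for YARS1 without the SLC29A2 control library.

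Histidyl-tRNA synthetase HARS1 (ENSG00000170445, chr5:140673904-140691862) fell, with FPKM of 57.5 in mock control cells, 54.1 with sorafenib, 43.6 with dipyridamole and 38.7 with both, and 58.6, 58.5, 46.5 and 45.2 in the same order in SLC29A2 cells. All 4 dipyridamole libraries were below all 4 others, with an effect of -0.39 ± 0.09 (limma, adjusted p = 0.013, and 0.0527 without the mock sorafenib library). Glutaminyl-tRNA synthetase QARS1 (ENSG00000172053, chr3:49095932-49105135), a subunit of the multisynthetase complex, had FPKM of 239.7 in mock control cells, 232 with sorafenib, 199 with dipyridamole and 173 with both, and 265, 236, 208 and 212 in the same order in SLC29A2 cells. Its groups did not overlap either, the effect was -0.30 ± 0.10 (limma, adjusted p = 0.0485), and the call held without the SLC29A2 both-drug library but in none of the other 7 such omissions, where it reached 0.165 without the mock sorafenib library. Both the HARS1 and QARS1 calls were lost without the pair of dipyridamole-treated mock libraries.

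HARS1 and its mitochondrial counterpart HARS2 lie head to head on chromosome 5, HARS1 on the minus and HARS2 on the plus strand, and RefSeq leaves 84 bases between their starts. The stretch between them is shown on the plus strand, because both genes are read outward from it.
HARS1-HARS2, chr5:140691371-140691454, plus strand: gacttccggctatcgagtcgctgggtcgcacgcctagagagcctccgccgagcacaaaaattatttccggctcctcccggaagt
HARS2 had FPKM of 29.8 in mock control cells, 37.2 with sorafenib, 29.8 with dipyridamole and 39.1 with both, and 34.9, 37.0, 25.5 and 31.9 in the same order in SLC29A2 cells, and it was not called, at 0.27 ± 0.12 with sorafenib and -0.14 ± 0.12 with dipyridamole. In GENCODE release 29 exons of the gene pair share 437 bases on opposite strands, and without strand information reads there cannot be assigned.

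Isoleucyl enzyme IARS2 (ENSG00000067704, chr1:220094102-220148041), in mitochondria, had FPKM of 153 in mock control cells, 128 with sorafenib, 91.7 with dipyridamole and 109 with both, and 159, 120.4, 92.4 and 108 in the same order in SLC29A2 cells. Controls were highest and dipyridamole alone lowest, and the 4 dipyridamole libraries did not overlap the others. The effect was -0.47 ± 0.13 (limma, adjusted p = 0.0243), lost without either control library (0.0673 in mock, 0.0882 in SLC29A2 cells) or either dipyridamole-only library (0.0706 and 0.0798). LARS2, the mitochondrial leucyl enzyme, read 23.9 in mock control cells, 27.3 with sorafenib, 22.1 with dipyridamole and 15.1 with both, and 26.4, 26.2, 21.6 and 19.3 in the same order in SLC29A2 cells, in FPKM. The pair of libraries with both drugs was lowest and the dipyridamole libraries did not overlap the others, and the effect was -0.40 ± 0.13 (limma, adjusted p = 0.0416). That call held without the mock control or mock dipyridamole library and was lost in the other 6 omissions, reaching 0.152 without the mock sorafenib library. YARS2, the tyrosyl enzyme, read 34.4 in mock control cells, 33.9 with sorafenib, 26.2 with dipyridamole and 28.8 with both, and 33.6, 36.5, 28.1 and 29.4 in the same order in SLC29A2 cells, in FPKM. Its groups did not overlap, the effect was -0.29 ± 0.09 (limma, adjusted p = 0.0449), and it was lost in all 8 omissions, at 0.0761 to 0.139.

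Lower FPKM in all 4 dipyridamole libraries was seen in 5 of 16 mitochondrial enzymes, IARS2, LARS2, TARS2, WARS2 and YARS2, and in 2 cytosolic ones, against 11.7% of all genes. EARS2, which charges glutamate and whose product an amidotransferase converts for glutamine, was the reverse, higher in all 4, against 13% of all genes, but it did not pass at 0.35 ± 0.12 (limma, adjusted p = 0.0604). EARS2 had FPKM of 14.0 in mock control cells, 13.5 with sorafenib, 15.4 with dipyridamole and 19.3 with both, and 13.3, 11.8, 14.9 and 19.0 in the same order in SLC29A2 cells, highest with both drugs in each cell type. WARS2, the counterpart of WARS1, had FPKM of 6.30 in mock control cells, 6.17 with sorafenib, 4.76 with dipyridamole and 4.81 with both, and 5.47, 5.24, 4.02 and 4.02 in the same order in SLC29A2 cells. CARS2, the counterpart of CARS1, had FPKM of 122 in mock control cells, 132 with sorafenib, 147 with dipyridamole and 161 with both, and 135, 145, 107 and 138 in the same order in SLC29A2 cells. It was above the control with dipyridamole alone in mock cells and below it in SLC29A2 cells, and its dipyridamole effect was 0.04 ± 0.12, not called. TARS2 and WARS2 had effects of -0.26 and -0.33 with limma adjusted p of 0.0557 and 0.0712. The median dipyridamole effect was 0.17 for cytosolic, -0.16 for mitochondrial, -0.17 for scaffold and 0.07 for all tested genes. With size factors the cytosolic calls higher fell to 3, namely AARS1, GARS1 and SARS1, where 13.4% of all genes were higher, the mitochondrial calls lower rose to 6 of 16, where 16.5% of all genes were lower, and the share of higher among all called genes went from 58.2% to 44.7%. Without the filter on low values AARS1, GARS1, LARS1 and SARS1 were called higher, and HARS1 and YARS2 lower. In that setting 4.63% of all genes were called higher and 3.68% lower. The class medians with size factors were 0.08 and -0.25, and without the pair of dipyridamole-treated mock libraries 0 mitochondrial and 0 cytosolic enzymes were called lower.

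**Figure D3:**
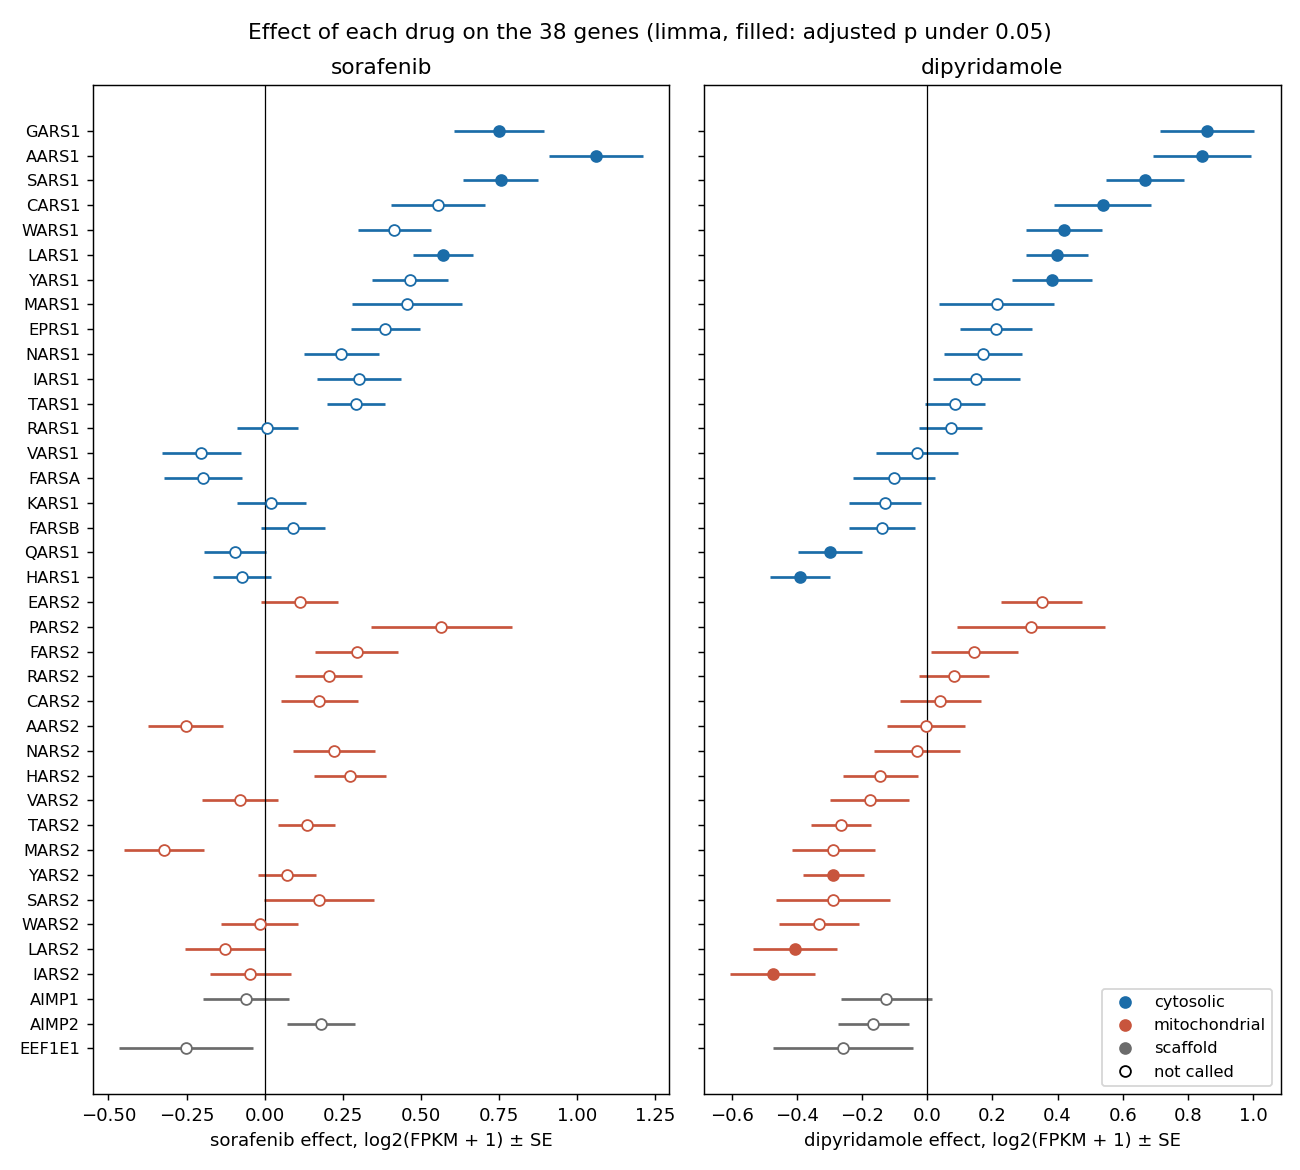
Effects of sorafenib (left) and dipyridamole (right) on log2(FPKM + 1) of each gene, points with SE bars from limma, filled where the adjusted p is under 0.05, grouped by class and ordered by the dipyridamole effect. AARS1, GARS1, SARS1 and LARS1 are filled in both panels, and all filled mitochondrial points lie below 0 in the right panel.

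The direct comparison of the classes was made within each library pair, as the median change of the 19 cytosolic minus that of the 16 mitochondrial enzymes on the log2(FPKM + 1) scale. For sorafenib the difference was 0.49 and 0.57 in mock and SLC29A2 cells without dipyridamole, and -0.10 and 0.01 in cells that also had dipyridamole, a mean of 0.24 ± 0.34 (SD, n = 4 pairs). For dipyridamole it was 0.54 and 0.67 without sorafenib, and -0.04 and 0.35 with it, a mean of 0.38 ± 0.31. The difference was thus near 0 when sorafenib was added to dipyridamole, and its mean was within 1 SD of 0 for sorafenib. Against the control of the same cells, the cytosolic median change lay between 0.40 and 0.56 in all 6 treated libraries. The mitochondrial median lay between -0.28 and 0.05, and that of all tested genes between -0.04 and 0.25. The 0.25 was in the mock both-drug library, where the cytosolic median was 0.50. The treated libraries of each cell type share 1 control library.

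**Figure D4:**
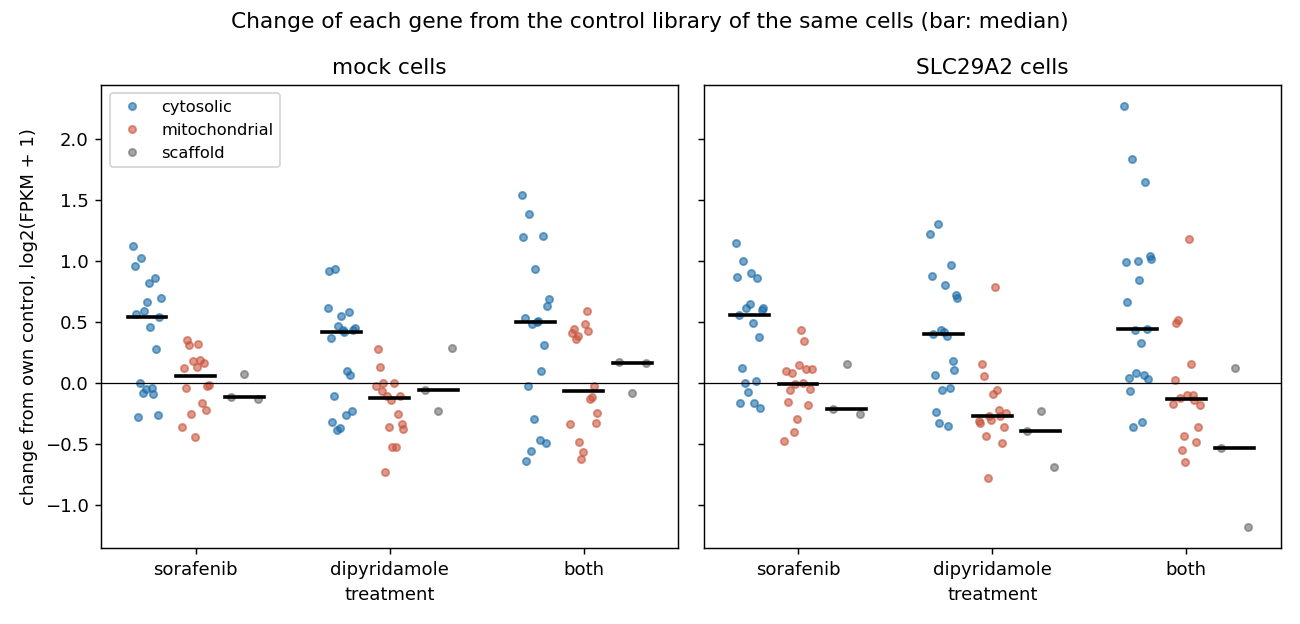
Change in log2(FPKM + 1) of each gene from the control library of the same cells, for mock cells (left) and SLC29A2 cells (right), with a black bar at the median of each class. The cytosolic median is 0.40 to 0.56 in every treated library and the mitochondrial median -0.28 to 0.05, with wide overlap of single genes. The median of all tested genes, not drawn, is -0.04 to 0.25.

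For 13 amino acids the set holds 1 cytosolic and 1 mitochondrial enzyme. The cytosolic enzyme had the larger sorafenib effect in 10 of these pairs and the larger dipyridamole effect in 11, with median differences of 0.38 and 0.50. The widest gaps were 1.31 for AARS1 over AARS2 with sorafenib and 0.96 for SARS1 over SARS2 with dipyridamole, the latter resting on few SARS2 reads. HARS1 and RARS1 were below their mitochondrial counterparts for both drugs, and VARS1 was below VARS2 for sorafenib. The arginyl enzyme RARS1 was the steadiest of the set, at 139.7 to 159.6 FPKM over 8 libraries. These are counts over genes of the same libraries and carry no test.

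**Figure D5:**
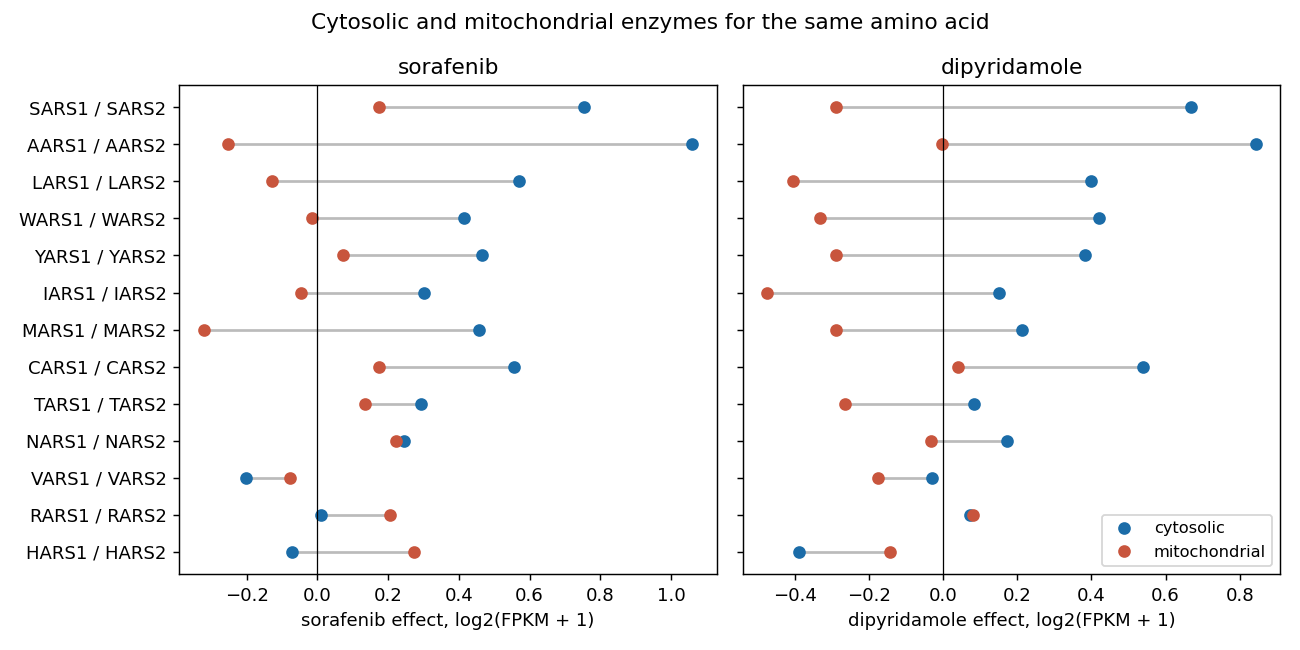
Sorafenib (left) and dipyridamole (right) effects on log2(FPKM + 1) for the 13 amino acids with both enzymes, cytosolic in blue and mitochondrial in red, joined by a line. The cytosolic point lies to the right in 10 pairs with sorafenib and 11 with dipyridamole.

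With both drugs against control treatment, a contrast added after earlier results of these data were seen, 12 of 19 cytosolic enzymes rose and 2 fell, in a limma model with 4 treatments and cell type. Among all genes 25.2% were called higher and 13.5% lower, so the cytosolic share of 63.2% higher exceeded the background. AARS1 rose by 1.90 ± 0.22, GARS1 by 1.61 ± 0.16 and SARS1 by 1.42 ± 0.16 (limma, adjusted p = 0.0011, 0.000764 and 0.00103). CARS1, LARS1, YARS1 and WARS1 rose by 1.09, 0.97, 0.85 and 0.83, and these 7 calls held without any 1 library and with size factors, where 16.9% of all genes were called higher. MARS1, EPRS1, IARS1, NARS1 and TARS1 rose by 0.67, 0.60, 0.45, 0.42 and 0.38, and none of these 5 passed with size factors or without the SLC29A2 control library, the limma adjusted p for TARS1 being 0.444 and 0.262. HARS1 and QARS1 fell by 0.46 and 0.39, and both calls were lost without either control library or without the mock library with both drugs. Of the mitochondrial enzymes EARS2 rose by 0.46, while IARS2, LARS2 and MARS2 fell by 0.52, 0.53 and 0.61, and all 4 calls were lost when the mock control or the SLC29A2 control library was left out, at adjusted p up to 0.149 for EARS2. The scaffold genes gave 0 calls.

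Of the 12 cytosolic genes called higher with both drugs, 10 had a promoter window and 7 of the 10 held TGATGNAA, namely AARS1, CARS1, GARS1, IARS1, MARS1, NARS1 and TARS1, whose stretches are printed with the promoter sequences. Of the 6 other cytosolic genes with a window 0 held it. The both-drug calls of IARS1, MARS1, NARS1 and TARS1 were lost with size factors. Grouped instead by the calls for sorafenib or dipyridamole as main effects, the split was weaker. A match was present in 3 of 5 cytosolic genes called higher and in 4 of the other 11. The genes called higher in that grouping, with or without a window, were those whose both-drug calls held with size factors. The 1 mitochondrial gene with a match, YARS2, was among those that fell with dipyridamole. Both groupings were made after the calls were known and are descriptions only.

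Departure from an additive response on the log2 scale was tested as the interaction of sorafenib and dipyridamole. It passed for 0 of 38 genes, against 0.0863% of all genes (0.0288% higher and 0.0576% lower), by limma and by voom. At an unadjusted p under 0.05 there were 5, 13.2% of the set against 13.2% of all genes, so their number was at the background. They were CARS1 at -0.71, IARS1 at -0.60, MARS1 at -0.81 and NARS1 at -0.46, and IARS2 at 0.57 (smallest limma adjusted p = 0.218). By class these were 4 of 19 cytosolic (21.1%) and 1 of 16 mitochondrial enzymes (6.25%). The interaction was positive in 6 of 19 cytosolic and 14 of 16 mitochondrial enzymes. Its medians were -0.16 and 0.17, against 0.11 for all genes, and the difference between classes was not tested. MARS1 illustrates the values, with FPKM of 309 in mock control cells, 545 with sorafenib, 418 with dipyridamole and 437 with both, and 275, 515, 479 and 493 in the same order in SLC29A2 cells. All 3 treated libraries of each cell type were above the control, and the both-drug library was not above sorafenib alone. MARS1 shares 355 exonic bases on the opposite strand with DDIT3, a stress gene that rose by 1.90 with dipyridamole, and the part of such reads in its values was not tested. Leaving out the pair of dipyridamole-treated mock libraries gave 2 interactions higher and 7 lower of 38, where 14.0% of all genes were called higher and 11.2% lower in a fit with 1 residual degree of freedom.

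The multisynthetase complex holds 7 of the cytosolic enzymes in the set (EPRS1, IARS1, KARS1, LARS1, MARS1, QARS1 and RARS1). With sorafenib 1 of 7 was called, LARS1, against 3 of the 12 cytosolic enzymes outside it. With dipyridamole 1 of 7 rose (LARS1) and 1 fell (QARS1), against 6 that rose and 1 that fell outside the complex. As a main effect of dipyridamole, 14.3% rose and 14.3% fell inside the complex, near the 17.5% and 12.6% of all genes. With sorafenib 14.3% rose, against 5.94% of all genes. Dipyridamole alone against control raised 3 of 7 inside (42.9%) and 6 of 12 outside (50%), against 7.43% of all genes, and lowered 0. Both drugs against control raised 4 of 7 (57.1%) and 8 of 12 (66.7%), against 25.2%, and lowered 1 in each. The difference between the counts inside and outside was not tested. Lysyl-tRNA synthetase KARS1, which serves both compartments, ranged from 109.8 to 142 FPKM and had effects of 0.02 and -0.13, neither called. Scaffold protein AIMP1 had FPKM of 16.6 in mock control cells, 15.2 with sorafenib, 15.8 with dipyridamole and 18.7 with both, and 21.3, 18.2, 15.9 and 14.3 in the same order in SLC29A2 cells, with no order by treatment shared by the cell types. AIMP2 had FPKM of 13.6 in mock control cells, 14.3 with sorafenib, 11.4 with dipyridamole and 12.7 with both, and 12.6, 14.1, 10.6 and 13.8 in the same order in SLC29A2 cells, lowest with dipyridamole alone in both cell types and not called, with 532 of the 1838 exonic bases of AIMP2 lying opposite EIF2AK1.

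SLC29A2 expression moved 0 of 38 genes by limma, and 0 by voom, against 0.00719% of all genes. At an unadjusted p under 0.05 there were 0, against 3.93%. Differences between SLC29A2 and mock libraries ran from -0.34 for EEF1E1 to 0.25 for FARSA, with a smallest adjusted p of 0.965. Whether the cell type changed the drug effects was tested as an interaction, and 0 of 38 passed for either drug, as did 0% of all genes. For sorafenib 0 had an unadjusted p under 0.05, against 0.719% of all genes, and for dipyridamole 7, or 18.4% of the set, against 19.8% of all genes, near the background. EEF1E1, the scaffold protein also called AIMP3, came closest, with FPKM of 15.4 in mock control cells, 13.9 with sorafenib, 18.9 with dipyridamole and 17.4 with both, and 18.8, 15.5, 11.3 and 7.69 in the same order in SLC29A2 cells. It was higher with dipyridamole in mock cells and lower in SLC29A2 cells, an interaction of -1.10 ± 0.20 (limma, adjusted p = 0.106). For AARS1 the dipyridamole differences were 1.22 and 1.12 in SLC29A2 cells and 0.61 and 0.42 in mock cells, with an interaction of 0.66 (limma, adjusted p = 0.133).

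Among 36 tested genes of amino acid supply and other ATF4 targets, 13 were called higher and 0 lower with sorafenib, with a median effect of 0.48. With dipyridamole 19 were higher and 2 lower, with a median of 0.81. Both shares of higher calls were above the 5.94% and 17.5% of all genes, though the list was drawn up with earlier results of these data known. ASNS, which makes asparagine, had FPKM of 2.82 in mock control cells, 10.1 with sorafenib, 7.92 with dipyridamole and 15.0 with both, and 2.96, 8.53, 8.01 and 12.1 in the same order in SLC29A2 cells. Its control libraries were lowest, and it rose by 1.05 with sorafenib and 0.85 with dipyridamole (limma, adjusted p = 0.0114 and 0.00625). With sorafenib the largest increases were those of NUPR1 by 1.55, JDP2 by 1.38, TRIB3 by 1.09 and ATF3 by 1.06, regulators of stress responses, ahead of ASNS. For ATF3 the sorafenib difference was 0.54 and 0.18 in mock and SLC29A2 cells without dipyridamole, and 1.65 and 1.88 with it. With dipyridamole they were those of the stress response genes PPP1R15A by 2.10, DDIT3 by 1.90, TRIB3 by 1.79 and NUPR1 by 1.49 and of the secreted factor GDF15 by 1.79, while ATF5 and the amino acid transporter SLC38A2 fell by 0.66 and 0.60. RNA of ATF4 itself, which is regulated mainly at translation, was not called, at -0.04 with sorafenib and 0.39 with dipyridamole. Of 13 genes for eIF2, its kinases and phosphatase subunits, EIF2AK4 alone passed with sorafenib, rising by 0.39, and EIF2AK3 and EIF2S3 rose by 0.78 and 0.33 with dipyridamole, or 15.4% against 17.5% of all genes.

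The other lists are read against the shares of all genes, 5.94% higher and 2.17% lower with sorafenib and 17.5% and 12.6% with dipyridamole. Of 9 cytosolic elongation and release factors 0 were called for sorafenib, and 3 (33.3%) fell with dipyridamole, EIF5A by 0.60, ABCE1 by 0.37 and GSPT1 by 0.30. Of 26 genes of transfer RNA maturation, POP1 and TRMT1 (7.69%) fell by 0.52 and 0.46 with sorafenib. With dipyridamole TRMT61A, ELP2 and CTU2, which modify transfer RNA, rose by 0.60, 0.44 and 0.44, and POP1 and ELAC2, which act in its processing, fell by 0.96 and 0.64. Both dipyridamole shares, 11.5% higher and 7.69% lower, were below those of all genes.

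On the mitochondrial side, 3 of 14 translation factors (21.4%) fell with dipyridamole, TSFM by 0.53, TUFM by 0.51 and GFM1 by 0.34, and MTIF3 rose by 0.59, while with sorafenib MTIF2 and MTIF3 (14.3%) rose by 0.60 and 0.59. Of 78 mitochondrial ribosomal protein genes, MRPS10 (1.28%) rose with sorafenib, by 0.48. With dipyridamole 3 (3.85%) rose, MRPS33 by 0.43, MRPS10 by 0.39 and MRPS30 by 0.37, and 7 (8.97%) fell, the largest changes being MRPS12 by 0.49, MRPL16 by 0.45, MRPL32 by 0.39, MRPL13 by 0.35 and MRPL39 by 0.32. These ribosomal protein shares were below those of all genes in both directions. Of the 13 messenger RNAs of mitochondrial DNA 7 (53.8%) fell with sorafenib, well above the 2.17% of all genes, with a median of -0.87 over the 13. The largest changes were those of MT-ND3 by -1.21, MT-ND6 by -1.16, MT-CO2 by -1.13 and MT-ND5 by -0.90, with MT-ND2 between the last pair, all subunits of the respiratory chain, and 0 were called with dipyridamole. In each cell type, every MT gene named here fell more with sorafenib in cells that also had dipyridamole. For MT-ND3 the difference was -0.65 and -0.82 in mock and SLC29A2 cells without dipyridamole, and -2.06 and -1.32 with it. The interaction of the drugs had a median of -0.68 over the 13, with 0 called. Reads of mitochondrial DNA made up 1.88% (mock cells, both drugs) to 5.74% (mock cells, dipyridamole alone) of a library.

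The cytosolic enzymes did not move as 1 block. Pearson's r over 8 libraries between each and the mean of the other cytosolic enzymes was 0.99 for YARS1, 0.98 for both WARS1 and EPRS1, and at least 0.82 for AARS1, CARS1, GARS1, IARS1, LARS1, MARS1, NARS1, SARS1 and TARS1. It was -0.59 for QARS1, -0.56 for HARS1, -0.37 for VARS1, -0.32 for FARSA, -0.21 for FARSB and -0.19 for KARS1, and 0.08 for RARS1. The 12 with a high r are the 12 called higher with both drugs, from the same libraries. Genes outside the set most like the mean cytosolic profile were FAM234A, SYNE3, VSIR, ATP9A and JDP2, with r from 0.99 down to 0.98 over the 8 libraries. These correlations share libraries and treatments and are descriptions.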

How the data were processed

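RNA sequencing of poly(A)-selected RNA was deposited for 8 SK-Hep1 libraries, 1 per condition. The deposited values are FPKM, per the file headers and names, and the submitters' processing notes list TopHat2 2.0, HTSeq 0.6.1, edgeR and GRCh38.p12 without their roles. No strandedness is stated. Each table had 58310 lines, of which 8 named no gene. Symbols, positions and exons came from GENCODE release 29 (GRCh38).

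Values were tested as log2(FPKM + 1), which understates changes of genes with low FPKM, for the 13899 genes that averaged 1 FPKM or more. limma 3.58.1 in R 4.3.3 fitted cell type, sorafenib and dipyridamole over all 8 libraries with a mean-variance trend, two-sided, at a Benjamini-Hochberg adjusted p under 0.05, and added each interaction singly. Contrasts of both drugs with control, either drug alone with control and either drug added to the other came from 4 treatments plus cell type. No condition had a replicate, so the p-values measure only the spread between these 8 libraries, including any interaction. The fit was tested on simulated data.

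FPKM times the mean transcript length fell on whole reads for 93.5% to 93.7% of values (tolerance 0.01), which gave the depth of 14.07 to 16.69 M reads. At this depth 1 read in a gene of 2 kb is worth 0.0300 to 0.0355 FPKM, counting error only. Alternatives were another pseudocount, no filter, median-of-ratios scaling, leaving out libraries, other models and limma voom on recovered reads.

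The genes, lists and motif were chosen with earlier results of these data known. All 38 genes were accounted for, and values in every library were given for those past the threshold in a main effect, for the 3 largest drug effects in a class with fewer than 3 calls, and for the mitochondrial counterpart of each called cytosolic enzyme, and MARS1 and EEF1E1 were added after their values were seen. From each list up to 5 calls of largest effect per direction and drug were named, and ATF4, ASNS and SLC29A2 always.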

Additional observations from a re-analysis of the deposited data

How the results depend on the processing

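The class difference (cytosolic minus mitochondrial median change) kept its direction under every alternative run for it, and no called gene changed direction. The difference also stayed within 1 SD of 0.24 for sorafenib and 0.38 for dipyridamole. With SDs of 0.34 and 0.31, that band is wider than the sorafenib mean and near the dipyridamole mean, so it is a weak check. Size factors shift both classes by nearly the same amount, and every gene of the set passed the filter. Those alternatives therefore could not test the difference. Counts of calls changed between settings. Of the 4 cytosolic enzymes higher with sorafenib, 1 remained without a filter, 2 with size factors, and 2 to 5 when 1 library was left out. Shares of all genes called higher there were 0.311%, 3.18% and 1.38% to 4.34%, against 5.94% before. Voom on recovered reads gave 7, 4 separate treatments 9 and all pairwise interactions 12. The shares of all genes called higher were 8.87%, 9.43% and 24.6%. All pairwise interactions also gave 3 mitochondrial enzymes higher and 1 lower from 0, where 10.3% of all genes were called lower. With dipyridamole the 7 cytosolic enzymes higher became 4 without a filter, 3 with size factors and 3 to 7 without 1 library. The shares of all genes called higher were 4.63%, 13.4% and 11.2% to 15.4%, against 17.5% before. The 2 cytosolic enzymes lower became 1 without a filter, 0 without the pair of dipyridamole-treated mock libraries and 0 to 2 without 1 library. The 3 mitochondrial enzymes lower became 1 without a filter, 6 with size factors, 6 with all pairwise interactions, 0 without that pair and 0 to 1 without 1 library. In the same order 3.68%, 16.5%, 21.9%, 11.9% and 8.6% to 10.8% of all genes were called lower, against 12.6% before. The 0 mitochondrial enzymes higher became 1 without that pair, with 4 treatments and with all pairwise interactions. There 10.9%, 19.7% and 31.4% of all genes were called higher. The scaffold gene EEF1E1 was called lower with dipyridamole without that pair, where 11.9% of all genes were lower. With all pairwise interactions it was called lower for sorafenib and for dipyridamole, where 10.3% and 21.9% of all genes were lower. Interactions of the drugs went from 0 to 3 lower with all pairwise interactions, where 2.62% of all genes were called lower. With both drugs, an added contrast whose alternatives were chosen after seeing the data, the 12 cytosolic enzymes higher became 7 with size factors and 7 to 12 without 1 library. The 2 cytosolic ones lower became 1 without a filter and 0 to 2 without 1 library. In that contrast the 1 mitochondrial enzyme higher became 0 with size factors and 0 to 2 without 1 library. The 3 mitochondrial enzymes lower became 1 without a filter, 6 with size factors and 0 to 3 without 1 library. With both drugs 16.9% of all genes were called higher and 20.5% lower with size factors, and 4.4% lower without a filter. Without 1 library 13% to 23.9% of all genes were called higher and 6.73% to 13.1% lower, against 25.2% and 13.5% before. The cause of these shifts was not tested, beyond the fewer libraries in the omissions and the 31551 genes tested without a filter. A lone library left in a condition is assumed to vary like the rest. The edgeR test was not run, because the deposited values are not counts. Beyond the matched libraries that the cell type and drug terms already compare, no paired analysis was possible because no replicate number links libraries. SARS2 had the fewest reads, 11 to 26. Besides depth, overlap with other genes may limit its count, which was not tested.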
